A study of Mus musculus with 6 samples.

Results

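The genes described here encode the integrin subunits and the laminin chains of mouse. They were taken by symbol from the gene table: alpha subunits Itga1 to Itga11 with Itga2b and Itgav, beta subunits Itgb1 to Itgb8, and chains named Lama, Lamb or Lamc. Described here are 31 of the 55809 genes listed, 13 of them alpha subunits, 8 beta subunits and 10 laminin chains. The rule used symbols and no expression values. The leukocyte alpha genes Itgad, Itgae, Itgal, Itgam and Itgax fall outside the naming rule and entered only as leukocyte markers.

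RNA came from HC11, a mouse mammary epithelial cell line that the study used as a luminal line. One group was cultured in medium with BMP7 protein, a bone morphogenetic protein ligand, and the other group (Ctrl) in the same kind of medium without it. The groups held 3 libraries each, and no genetic change was made in either. The comparison served to find what luminal cells express under BMP7. The methods describe starving HC11 cells before stimulation, and they do not say which duration of stimulation the sequenced RNA had. All libraries are of 1 cell line, and nothing in the labels says whether the replicates were separate cultures. Libraries are named here by the numbers of their columns, which are 1, 2 and 3 for Ctrl and 1, 3 and 4 for BMP7.

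Integrins are receptors made of an alpha and a beta subunit, and the pair decides which matrix protein is bound. Laminins are trimers of an alpha, a beta and a gamma chain and form the sheet of the basement membrane on which mammary epithelium rests. Laminin-332, with the chains Lama3 and Lamb3, is held by integrin alpha6beta4 at hemidesmosomes and by alpha3beta1, laminin-511 (Lama5, Lamb1, Lamc1) is a widespread basement membrane laminin, and the RGD-binding integrins hold fibronectin, vitronectin and latent TGF-beta.

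The libraries held between 14607938 and 23748970 counted fragments, with the fewest in BMP7 replicate 1. Of the genes listed, 15733 had enough counts to be tested with edgeR, and their median log2 fold change was -0.01. By the call defined below, 5.99% of them rose and 5.38% fell. Krt8, Epcam, Krt5 and Krt14 were counted in every library, whereas Krt19 had 0 to 8 counts and the myoepithelial gene Cnn1 0 to 4. Of 7 luminal markers tested, 4 fell and none rose, and their list summed to between 1766 and 1791 CPM (counts scaled to library size, with TMM factors) in Ctrl and between 1421 and 1441 CPM with BMP7. Of 7 basal markers tested, 4 rose and none fell, and that list summed to between 6547 and 6682 CPM in Ctrl and between 7508 and 8940 CPM with BMP7. The adipocyte list summed to between 13.7 and 22.3 CPM in Ctrl and to 25.9 CPM in BMP7 replicate 1, against 83.3 CPM and 75.2 CPM in BMP7 replicates 3 and 4. All 7 tested adipocyte markers rose. The macrophage list, with 1 of 5 lower, summed to between 41.4 and 44.9 CPM in Ctrl, to 43.3 CPM in BMP7 replicate 1 and to 23.6 CPM and 22.0 CPM in BMP7 replicates 3 and 4. The gene lower was Lyz2, at 22.5, 6.76 and 6.94 CPM in BMP7 replicates 1, 3 and 4 against a Ctrl mean of 26.2 CPM. Cd68 of the same list was not called (edgeR, adjusted p = 0.145) and lay above Ctrl in every BMP7 library. BMP7 replicates 3 and 4 thus stood apart from replicate 1 in the adipocyte and macrophage sums, so fold changes of BMP7 replicate 1 alone against Ctrl are given below for the genes that changed. The endothelial list, with Pecam1 as the 1 gene higher of 2 tested and 3 genes at or under 3 counts throughout, summed to between 16.3 and 17.7 CPM in Ctrl and between 26.4 and 28.2 CPM with BMP7. The fibroblast list summed to between 114 and 125 CPM in Ctrl and between 98.9 and 117 CPM with BMP7, with 3 genes higher and 1 lower of 6 tested. The part of these markers in the results below was not tested, and in bulk RNA fewer cells of a type cannot be told apart from less RNA per cell.

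Of the 31 integrin and laminin genes, 25 passed the expression filter. The call asked for an adjusted p below 0.05 together with a fold above 1.2 in either direction, and 4 of the 25 (16%) were called, against 11.4% of all genes tested. Itga6 rose, where 5.99% of all genes did. Itgb3, Lama5 and Lamc1 fell, where 5.38% of all genes did. Lamb3 and Itgb8 passed the adjusted p but not the fold, which brought the number past the adjusted p alone to 6 (24%), against 13.7% of all genes. With BMP7 replicate 1 alone against Ctrl, 2 genes rose (Itga6 and Lamb3) and 4 fell (Itgb3, Itgb8, Lama5 and Lamc1), with the spread of the lone library taken to be that of Ctrl. In that fit 4.41% of 16784 genes rose and 3.94% fell. The BMP7 and Ctrl libraries did not overlap for 14 of the 25 genes (56%), against 29.8% of all genes. In 6 of these the BMP7 libraries lay above Ctrl, as they did for 14.8% of all genes, and in 8 they lay below, as for 15.1% of all genes. Among the 6, Itga7 passed the expression filter only through its BMP7 libraries. The median log2 fold change of the 25 was -0.03, against -0.01 for all genes. For a single gene with no overlap the exact two-sided permutation test of 3 libraries against 3 gave p = 0.1, the smallest it can give.

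**Figure D1:**
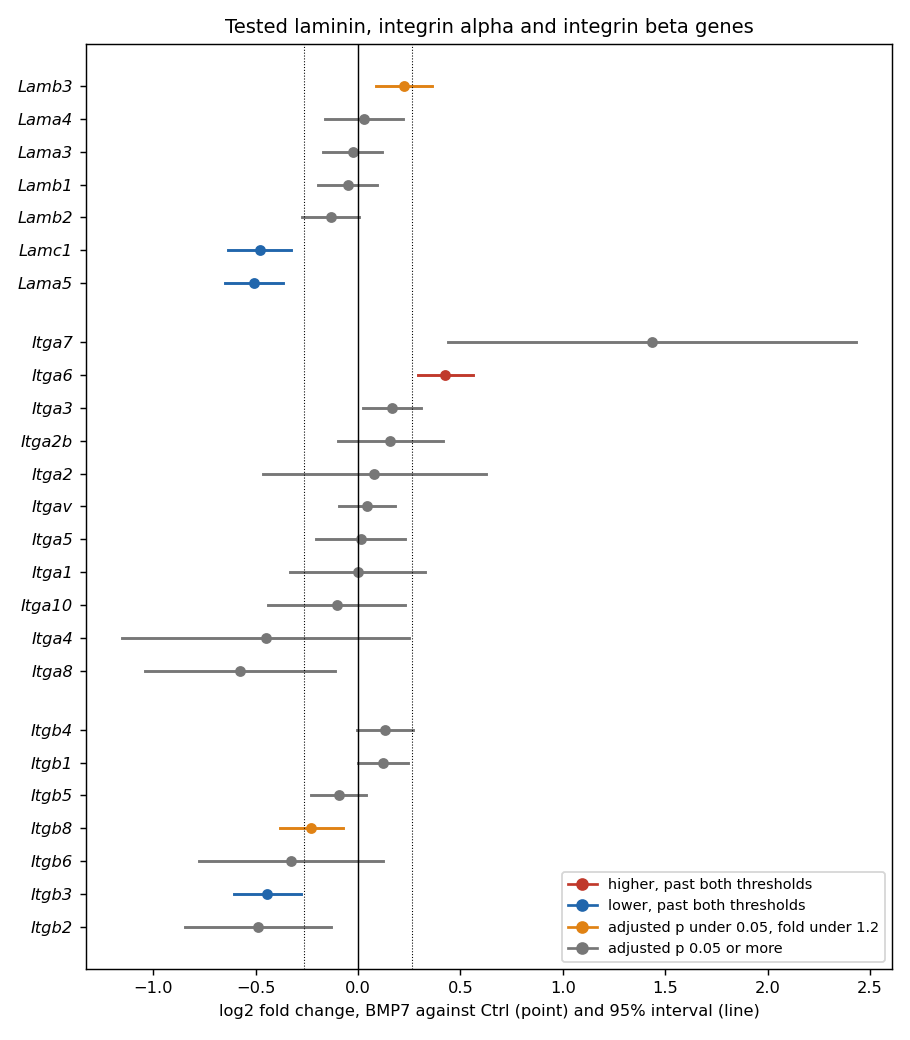
Points are log2 fold changes of BMP7 against Ctrl (x axis) for the 25 integrin and laminin genes tested (y axis, grouped as laminin chains, alpha subunits and beta subunits), lines are 95% intervals, and dotted lines mark a fold change of 1.2 in either direction. Itga6 at 0.43 is the 1 red point, and Lama5 at -0.51, Lamc1 at -0.48 and Itgb3 at -0.44 are the 3 blue points.

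Of the laminin-511 chains, Lama5 and Lamc1 fell by nearly the same proportion and Lamb1 did not pass the test, with a median log2 fold change of -0.48 over the 3 chains. Of the laminin-332 chains described, Lamb3 was higher in every BMP7 library without reaching the fold of 1.2, and Lama3 did not pass the test.

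Lama5, the alpha chain of laminin-511 (chr2:179818166-179867652, minus strand, mm39), was at 128, 125 and 130 CPM in Ctrl replicates 1, 2 and 3 and at 85.7, 85.6 and 98.9 CPM in BMP7 replicates 1, 3 and 4. Every BMP7 library lay well below the lowest Ctrl library. Its log2 fold change was -0.51 ± 0.07 (SE, 95% interval -0.65 to -0.36), a fall of 29.6% (edgeR, adjusted p = 5.48e-05), and BMP7 replicate 1 alone gave -0.58.

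Lamc1, the gamma chain shared by laminin-511 and most other laminins (chr1:153094668-153208532, minus strand), was at 102, 108 and 112 CPM in Ctrl and at 68.8, 78.5 and 83.0 CPM with BMP7. The groups did not overlap, and the lowest library was BMP7 replicate 1. Its log2 fold change was -0.48 ± 0.07 (SE, 95% interval -0.63 to -0.33), a fall of 28.3% (edgeR, adjusted p = 0.000211), and BMP7 replicate 1 alone gave -0.64.

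Lamb1, the beta chain of laminin-511 (chr12:31315233-31379643, plus strand), was at 84.9, 79.5 and 77.9 CPM in Ctrl and at 72.1, 79.2 and 82.3 CPM with BMP7. These groups overlapped, and the log2 fold change was -0.05 with a 95% interval of -0.19 to 0.09 (edgeR, adjusted p = 0.691). The lower end of this interval lay above the estimates for Lama5 and Lamc1.

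Promoters were read for the laminin trimers because the chains of 1 trimer moved unequally. In the response to BMP, activated Smad1 and Smad5 bind GC-rich elements such as GGCGCC. GTCTAGAC is a palindromic Smad-binding element of a different sequence and not a form of GGCGCC. RefSeq promoter sequence on GRCm38.p6 matched 21 of the 31 genes with 24 start sites, and the 250 bases before each start were searched on both strands. Of the 4 called genes this covers Lama5, and Itga6, Itgb3 and Lamc1 were not searched. GGCGCC, which reads the same on both strands, was found once each before Lama5, Lamb1 and Itgb1, and it is present in 9.59% of 32851 promoters of the same length. GTCTAGAC, also its own reverse complement, was found before none of the 21 genes and in 0.167% of all promoters. The Lama5 and Lamb1 sequences are shown because both hold GGCGCC while Lama5 fell and Lamb1 did not pass the test, and the Lamb3 sequence, before the first of its 2 listed starts, is shown as a laminin-332 chain without it. Capitals mark GGCGCC, and each runs 5′ to 3′ on the strand of its gene, from chr2:180225860-180226109 (minus, 72.4% GC), chr12:31265043-31265292 (plus, 62.0% GC) and chr1:193301744-193301993 (plus, 58.8% GC).
Lama5: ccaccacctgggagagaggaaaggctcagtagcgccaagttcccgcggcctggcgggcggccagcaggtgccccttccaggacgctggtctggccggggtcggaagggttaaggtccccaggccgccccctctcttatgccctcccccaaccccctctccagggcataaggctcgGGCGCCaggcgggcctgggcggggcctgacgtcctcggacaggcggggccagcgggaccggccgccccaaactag
Lamb1: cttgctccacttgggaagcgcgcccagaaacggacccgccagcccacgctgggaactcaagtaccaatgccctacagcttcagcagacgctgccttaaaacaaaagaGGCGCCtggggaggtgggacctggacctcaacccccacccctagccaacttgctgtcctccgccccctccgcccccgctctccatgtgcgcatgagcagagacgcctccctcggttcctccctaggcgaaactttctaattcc
Lamb3: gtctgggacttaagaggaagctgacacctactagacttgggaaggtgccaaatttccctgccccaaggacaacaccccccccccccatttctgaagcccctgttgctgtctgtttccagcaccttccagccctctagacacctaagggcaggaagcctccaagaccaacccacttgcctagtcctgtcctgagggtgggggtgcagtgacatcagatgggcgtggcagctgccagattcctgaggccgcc

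Lamb3, the beta chain found only in laminin-332 (chr1:192890007-193026186 in mm39), was at 269, 249 and 250 CPM in Ctrl and at 315, 276 and 305 CPM with BMP7. All BMP7 libraries lay above Ctrl, with replicate 3 nearest to it. The log2 fold change was 0.22 ± 0.07 (SE, 95% interval 0.09 to 0.36), or 16.8% (edgeR, adjusted p = 0.0305), under the fold of 1.2. The adjusted p was lost without Ctrl replicate 2 (0.142), Ctrl replicate 3 (0.117), BMP7 replicate 1 (0.0887, log2 fold change 0.18) or BMP7 replicate 4 (0.074). Without BMP7 replicate 3 both thresholds were passed (0.28), and BMP7 replicate 1 alone gave 0.30.

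Lama3, the alpha chain of laminin-332, was at 65.3, 58.5 and 58.9 CPM in Ctrl and at 59.0, 58.6 and 62.0 CPM with BMP7. The groups overlapped, with a log2 fold change of -0.03 and a 95% interval of -0.17 to 0.12 (edgeR, adjusted p = 0.857).

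**Figure D2:**
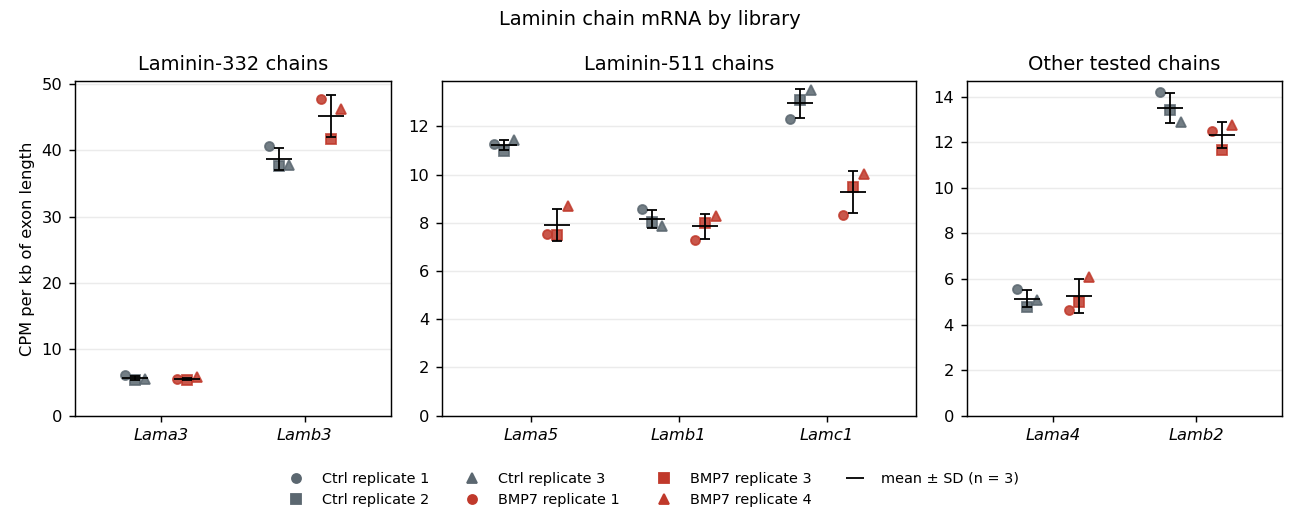
Each point is 1 library, the y axes give CPM per kb of exon length, and horizontal lines with bars are the mean ± SD of 3 libraries. Lama5 and Lamc1 sat below Ctrl in all BMP7 libraries (means 7.91 against 11.2 and 9.28 against 13.0), Lamb3 sat above it (45.2 against 38.7), and Lama3, Lamb1 and Lama4 overlapped.

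To compare chains with each other, CPM was divided by exon length in kb. This length joins all exons of a gene and can exceed its longest transcript in GENCODE vM21. It was 12068 bases against 6046 for Lama4 and 9917 against 5784 for Lamb1. For Lama5 it was 11388 against 11388 and for Lama3 10745 against 10548. Orders, sums and ratios between genes therefore depend on the length used, and levels by transcript length were not computed. On this scale of levels Lamb3 stood above the other chains described in Ctrl (38.7 ± 1.68 CPM per kb, SD, n = 3). Lamb2 (13.5 ± 0.656) and Lamc1 (13.0 ± 0.606) did not differ beyond their spread, and Lama5 (11.2 ± 0.223) and Lamb1 (8.14 ± 0.370) came next. By exon length Lama3 (5.67 ± 0.355) and Lama4 (5.14 ± 0.378) were the lowest chains tested and did not differ beyond their spread. The alpha chain of laminin-332 was thus well below its beta chain, with a ratio of Lama3 to Lamb3 of 0.146 ± 0.00276 in Ctrl and 0.124 ± 0.00790 with BMP7.

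Summed over the 10 laminin genes described, the level was 95.3 ± 2.82 CPM per kb in Ctrl and 93.4 ± 4.50 with BMP7 (SD, n = 3), a difference smaller than the spread of either group. Lama3 and Lamb3 together made up 47.4%, 46.2% and 46.0% of it in Ctrl and 56.9%, 53.1% and 53.1% with BMP7. The laminin-511 chains made up 32.6%, 34.4% and 34.9% in Ctrl and 24.7%, 28.1% and 27.6% with BMP7. Neither share overlapped between the groups, and no test was made on shares or ratios over chosen genes. The ratio of the beta chains Lamb3 to Lamb1 was 4.74, 4.70 and 4.81 in Ctrl and 6.55, 5.22 and 5.57 with BMP7, and that of the alpha chains Lama3 to Lama5 went from 0.539, 0.495 and 0.480 to 0.730, 0.726 and 0.664. These sums weigh mRNAs and are not amounts of assembled trimer.

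**Figure D3:**
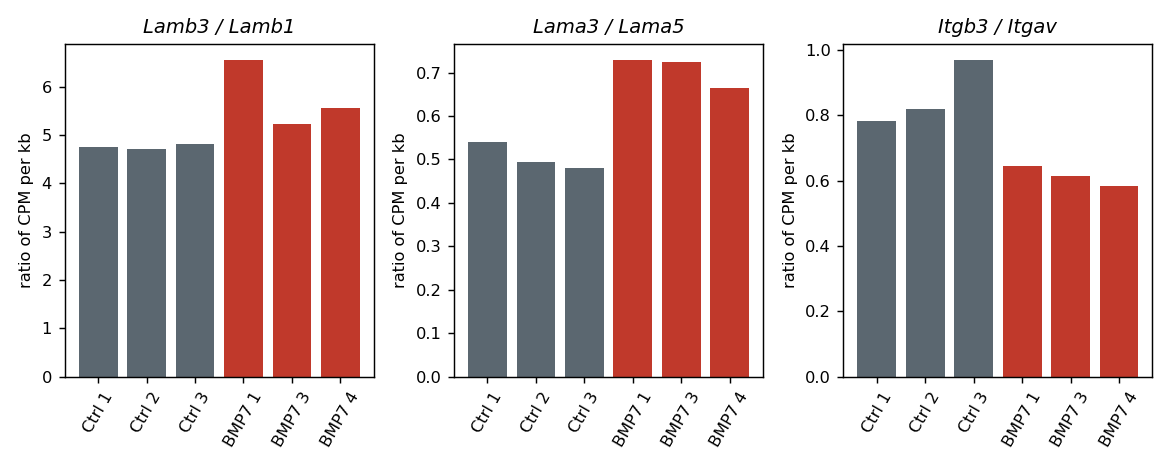
Bars are ratios of levels in CPM per kb (y axis, from 0) for each Ctrl library (grey) and each BMP7 library (red). Lamb3 to Lamb1 was between 4.70 and 4.81 in Ctrl and between 5.22 and 6.55 with BMP7, Lama3 to Lama5 was also higher in each BMP7 library, and Itgb3 to Itgav was lower, between 0.583 and 0.646 against 0.783 to 0.971.

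Of the remaining laminin chains, Lamb2, a beta chain of laminin-521, was at 86.3, 81.5 and 78.4 CPM in Ctrl and at 76.0, 70.9 and 77.7 CPM with BMP7. The BMP7 libraries lay just below Ctrl, with a log2 fold change of -0.13 (95% interval -0.27 to 0.00) that did not pass the test (edgeR, adjusted p = 0.207). Lama4, the alpha chain of laminin-411 known from vessel walls and mesenchyme, overlapped between the groups, at 57.8 to 66.8 CPM in Ctrl and 56.0 to 73.2 CPM with BMP7. Lama1 had no count in any library, Lama2 had 0 to 9 counts and Lamc3 0 to 3, and none of these was tested.

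Among the laminin receptors, Itga6 rose and its partners Itgb4 and Itgb1 lay above Ctrl without passing the test. Of the 5 laminin-binding subunits tested, 1 was called higher (5.99% of all genes were) and 4 had all BMP7 libraries above Ctrl (14.8% of all genes had), with a median log2 fold change of 0.17. The 4 include Itga7, which had few counts and did not pass a filter of 10 counts in every library. Itga7 passed the expression filter only through its BMP7 libraries, so its place above Ctrl adds nothing to this count.

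Itga6, which forms alpha6beta4 at hemidesmosomes and alpha6beta1 elsewhere and is used as a surface marker of basal mammary cells (chr2:71575960-71688760, plus strand), was at 216, 196 and 211 CPM in Ctrl and at 268, 273 and 295 CPM with BMP7. Its lowest BMP7 library was clearly above its highest Ctrl library. The log2 fold change was 0.43 ± 0.06 (SE, 95% interval 0.29 to 0.56), a rise of 34.4% (edgeR, adjusted p = 0.000157), and BMP7 replicate 1 alone gave 0.37. A stretch of 7.56% of its longest transcript in GENCODE vM21 matches Gm29397 at 95% identity or more. In the annotation used for counting, Itga6 shared no exon base with another gene, and whether fragments were lost was not tested. Other members had such matches too, among them Itgb4 (B230344G16Rik, 5.38%) and Itgb5 (Gm38317, 10.45%).

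Itgb4, the beta subunit of alpha6beta4, which pairs with no other alpha subunit (chr11:115865535-115899238, plus strand), was at 1179, 1321 and 1223 CPM in Ctrl and at 1383, 1323 and 1372 CPM with BMP7. BMP7 replicate 3 and Ctrl replicate 2 were nearly level. The log2 fold change was 0.13 (95% interval -0.00 to 0.27; edgeR, adjusted p = 0.207). Per length Itgb4 stood far above Itga6, so that the ratio of Itga6 to Itgb4 was 0.140, 0.114 and 0.132 in Ctrl and 0.149, 0.159 and 0.165 with BMP7, higher in each BMP7 library. The exon length was 9142 bases for Itga6, whose longest transcript has 4310, and 7015 for Itgb4, whose longest has 6208. The size of the ratio depends on these lengths, which are the same in both groups.

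Itga3, the laminin-binding partner of Itgb1, was at 227, 265 and 241 CPM in Ctrl and at 288, 263 and 271 CPM with BMP7. Ctrl replicate 2 lay among the BMP7 libraries, and the log2 fold change of 0.17 (95% interval 0.03 to 0.31) did not pass the test (edgeR, adjusted p = 0.118). Itga7, the laminin receptor of muscle, had 3 to 7 counts per library in Ctrl and 10 to 20 with BMP7. Its log2 fold change of 1.43 ± 0.47 (SE) was the largest of the 25 genes and missed the adjusted p (edgeR, adjusted p = 0.0536), on counts that allow only a wide interval, 0.44 to 2.43.

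Itgb1, the common beta subunit of the laminin, collagen and fibronectin receptors, was at 900, 891 and 899 CPM in Ctrl and at 968, 989 and 973 CPM with BMP7. The 3 Ctrl libraries were close together and all BMP7 libraries lay above them, yet the log2 fold change was 0.12 and did not pass the test (edgeR, adjusted p = 0.191). Itgb1 and Itgb4 together made up 86.9% ± 0.517 of the integrin beta level in CPM per kb in Ctrl and 89.2% ± 0.0502 with BMP7 (SD, n = 3). Itga3 and Itga6 made up 74.3% ± 1.03 of the alpha level in Ctrl and 77.3% ± 0.704 with BMP7.

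**Figure D4:**
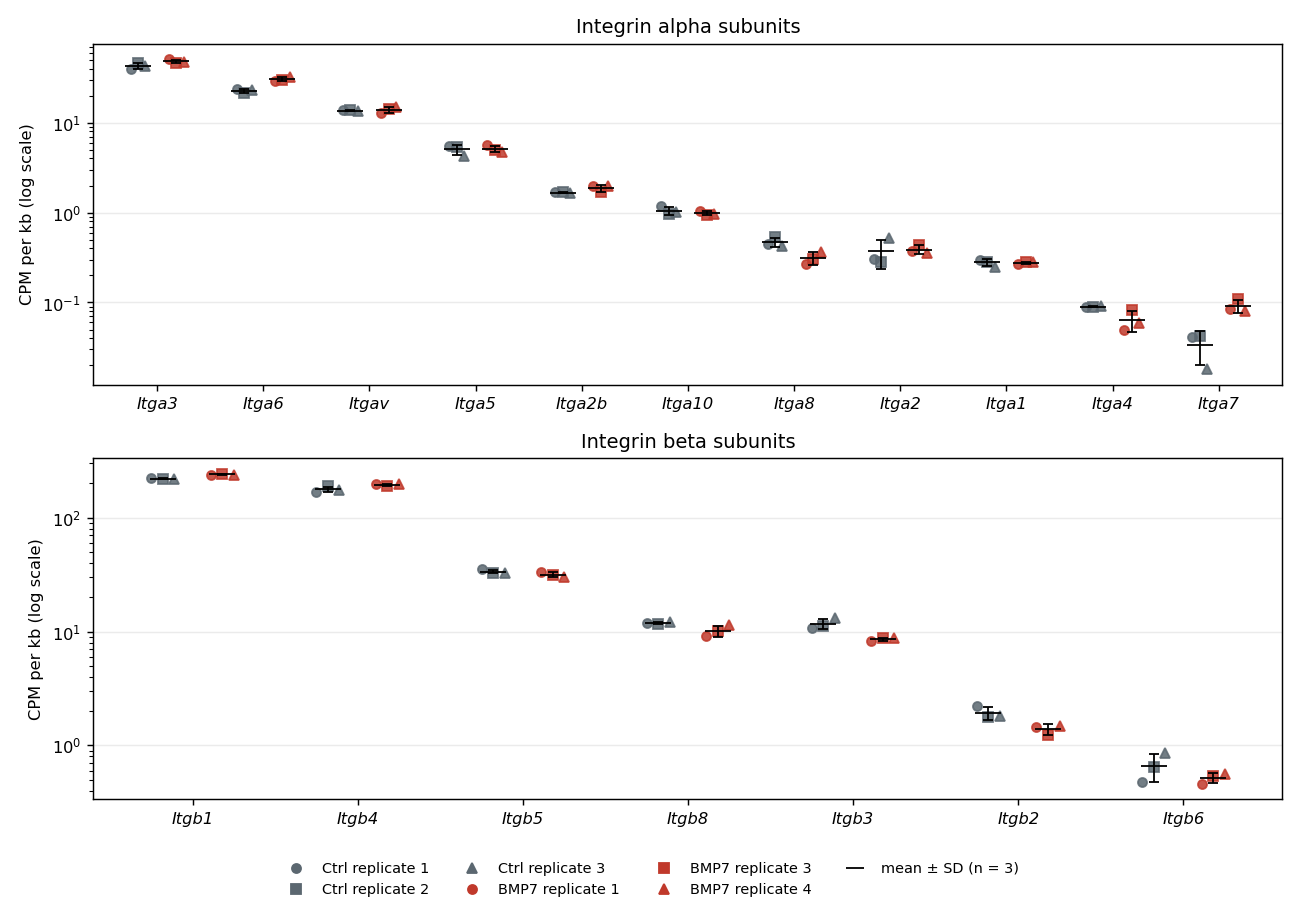
Each point is 1 library, y axes are log scales of CPM per kb of exon length, and horizontal lines with bars are the mean ± SD of 3 libraries. Itga3 (42.8 in Ctrl) and Itga6 (22.7) led the 11 alpha subunits tested and Itgb1 (220) and Itgb4 (177) the 7 beta subunits tested, Itga6 was higher with BMP7 (30.5), and Itgb3 was lower (8.57 against 11.7).

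Among the RGD-binding subunits, Itgb3 fell and Itgb8 passed the adjusted p alone. Of the 9 tested, 2 had all BMP7 libraries above Ctrl, against 14.8% of all genes, and 3 below, against 15.1%, and the median log2 fold change was -0.10.

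Itgb3, which pairs with Itgav as the vitronectin receptor and with Itga2b on platelets (chr11:104498826-104561302, plus strand), was at 63.1, 66.4 and 76.8 CPM in Ctrl and at 48.8, 51.4 and 51.5 CPM with BMP7. The BMP7 libraries were close together and below all of Ctrl, where replicate 3 was the highest. The log2 fold change was -0.44 ± 0.08 (SE, 95% interval -0.61 to -0.28), a fall of 26.4% (edgeR, adjusted p = 0.000751), and BMP7 replicate 1 alone gave -0.50. When the null hypothesis was a fold of 1.2 rather than no change, the call was lost (edgeR glmTreat, adjusted p = 0.0734).

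Its alpha partner Itgav was at 147, 147 and 144 CPM in Ctrl and at 138, 153 and 161 CPM with BMP7. The BMP7 libraries lay on either side of Ctrl, with a log2 fold change of 0.04 (95% interval -0.09 to 0.18; edgeR, adjusted p = 0.741). The ratio of Itgb3 to Itgav in CPM per kb was 0.783, 0.820 and 0.971 in Ctrl and 0.646, 0.613 and 0.583 with BMP7, without overlap.

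Itgb8, a partner of Itgav that binds latent TGF-beta, was at 131, 128 and 135 CPM in Ctrl and at 100, 111 and 125 CPM with BMP7. All BMP7 libraries lay below Ctrl, with replicate 4 just under it. The log2 fold change was -0.23 ± 0.07 (SE, 95% interval -0.38 to -0.07; edgeR, adjusted p = 0.0481), under the fold of 1.2. The adjusted p was lost without any 1 of the other 5 libraries (0.114 to 0.154, smallest change -0.16 without BMP7 replicate 1) and with RLE scaling (0.0545). Without BMP7 replicate 4 both thresholds were passed (-0.32), and BMP7 replicate 1 alone gave -0.39.

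Itgb5, another Itgav partner in vitronectin binding, was at 125, 117 and 117 CPM in Ctrl and at 118, 111 and 106 CPM with BMP7, with a log2 fold change of -0.10 (edgeR, adjusted p = 0.366). Itgb6, the epithelial partner that activates latent TGF-beta, was low, at 3.42, 4.57 and 6.06 CPM in Ctrl and 3.28, 3.82 and 4.02 CPM with BMP7 (log2 fold change -0.33; edgeR, adjusted p = 0.355). The groups overlapped for both. Itga5, the fibronectin receptor subunit, was at 27.2, 26.2 and 21.3 CPM in Ctrl and at 27.6, 24.5 and 23.4 CPM with BMP7, with a log2 fold change of 0.01 (95% interval -0.20 to 0.23; edgeR, adjusted p = 0.959).

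Itga8, the nephronectin receptor subunit, was at 3.32, 3.93 and 3.13 CPM in Ctrl and at 1.95, 2.27 and 2.70 CPM with BMP7. The BMP7 libraries lay below Ctrl, but the log2 fold change of -0.58 (95% interval -1.04 to -0.11) did not pass the test at these levels (edgeR, adjusted p = 0.0962). Itga2b, the platelet subunit, was at 9.15, 9.14 and 9.05 CPM in Ctrl and at 10.7, 9.16 and 10.7 CPM with BMP7 (log2 fold change 0.16; edgeR, adjusted p = 0.450).

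The alpha subunits of collagen receptors, Itga4 and the leukocyte subunit Itgb2 were low, and none of these was called. Itga1, Itga2 and Itga10 overlapped between the groups, with log2 fold changes of -0.00, 0.08 and -0.10 at mean levels of 5.18, 2.63 and 5.45 CPM in Ctrl. Itga10 shares 33.5% of its exon length with Gm42957, so its value is uncertain. Itga4, a VCAM-binding subunit, was at 1.25, 1.23 and 1.27 CPM in Ctrl and at 0.697, 1.16 and 0.826 CPM with BMP7 (log2 fold change -0.45; edgeR, adjusted p = 0.426).

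Itgb2, the beta subunit of leukocyte integrins, was at 6.79, 5.41 and 5.53 CPM in Ctrl and at 4.46, 3.73 and 4.52 CPM with BMP7. The groups did not overlap, and the log2 fold change of -0.49 (95% interval -0.85 to -0.13) missed the adjusted p (edgeR, adjusted p = 0.0673). Beside it, the list of other leukocyte markers, which holds the alpha partners of Itgb2, summed to between 6.73 and 8.38 CPM in Ctrl, to 6.83 CPM in BMP7 replicate 1 and to 3.29 CPM and 3.42 CPM in replicates 3 and 4. Of its 4 tested genes Ptprc and Itgam fell, and Itgad had no count in any library. Their part in the value of Itgb2 was not tested. Itga9 (0 to 1 counts), Itga11 (0 to 6) and Itgb7 (2 to 22) were not tested.

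The proteins that integrins and laminins meet were described with 4 lists of partner genes. The lists were chosen with earlier results of these data known, so their shares beside those of all genes only describe them. Among extracellular integrin ligands, 9 of the 18 tested rose (5.99% of all genes did) and 3 fell (5.38% of all genes did), with a median log2 fold change of 0.39 against -0.01 for all genes. Tnn, which encodes the matrix protein tenascin-W, had 6, 1 and 1 counts in Ctrl and 105, 220 and 131 with BMP7 (log2 fold change 5.90 ± 0.36; edgeR, adjusted p = 8.29e-09). Tnn passed the expression filter only through its BMP7 libraries. Ccn1, a matrix ligand of alphav and alpha6 integrins, went from between 9.87 and 14.7 CPM in Ctrl to 44.6, 46.7 and 30.7 CPM (log2 fold change 1.74 ± 0.15; edgeR, adjusted p = 5.28e-07). Col1a2, a chain of type I collagen, was at 1.06, 1.62 and 1.61 CPM in Ctrl and at 3.76, 5.78 and 3.80 CPM with BMP7 (log2 fold change 1.65 ± 0.26; edgeR, adjusted p = 0.000269). Every BMP7 library of these genes lay above Ctrl, whereas the 3 ligand genes that fell were Thbs1, Col1a1 and Cdh1. With BMP7 replicate 1 alone, 8 ligands rose and 3 fell.

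Of 15 basement membrane partners of laminin tested, 5 rose and none fell, against 5.99% and 5.38% of all genes, with a median log2 fold change of 0.21. By the adjusted p alone 6 rose and 1 fell, where 13.7% of all genes passed it in either direction. Under the fold of 1.2, Col4a1 was lower (log2 fold change -0.23; edgeR, adjusted p = 0.013) and Col4a5 higher (0.21; edgeR, adjusted p = 0.0409). Smoc2, a calcium-binding basement membrane protein, was at 0.819, 0.934 and 1.27 CPM in Ctrl and at 5.09, 3.82 and 3.42 CPM with BMP7 (log2 fold change 2.01 ± 0.27; edgeR, adjusted p = 5.41e-05). Its relative Smoc1 was at 44.4, 43.3 and 43.8 CPM in Ctrl and at 81.0, 88.5 and 77.8 CPM with BMP7 (log2 fold change 0.91 ± 0.07; edgeR, adjusted p = 8.14e-08). Npnt, which encodes the Itga8 ligand nephronectin and belongs to the ligand list too, was at 1.11, 0.787 and 0.929 CPM in Ctrl and at 2.79, 2.18 and 1.38 CPM with BMP7 (log2 fold change 1.15 ± 0.33; edgeR, adjusted p = 0.0286). No library overlapped for these 3 genes, and the other 2 that rose were Sparc and Nid1. Nid1, the nidogen that links laminin to collagen IV, passed the expression filter only through its BMP7 libraries. It was at 0.558 CPM in BMP7 replicate 1 and at 1.82 and 1.38 CPM in replicates 3 and 4. Replicates 3 and 4 are the libraries with the high adipocyte sums, and the part of those markers in the value of Nid1 was not tested. The number of these partners that rose was 2 without Ctrl replicate 2, 3 without BMP7 replicate 3 and 4 with BMP7 replicate 1 alone.

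Of the 9 hemidesmosome and tetraspanin partners, which include plectin (Plec), dystonin (Dst) and type XVII collagen (Col17a1), 1 fell (5.38% of all genes did), none rose and the median was 0.05. The gene that fell was Cd81, a tetraspanin, at 106, 118 and 114 CPM in Ctrl and 99.0, 86.9 and 94.4 CPM with BMP7 (log2 fold change -0.27 ± 0.07; edgeR, adjusted p = 0.0132). Its groups did not overlap, but no gene of the list was called (0 of 9) without Ctrl replicate 2, without Ctrl replicate 3, without BMP7 replicate 3 or with BMP7 replicate 1 alone.

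Of 43 adaptor and focal adhesion genes tested, 6 rose and 4 fell, where 5.99% and 5.38% of all genes did, and the median log2 fold change was -0.02. Tns4, a short tensin that binds beta subunit tails, rose from 42.8, 49.4 and 44.8 CPM to 96.4, 104 and 96.9 CPM (log2 fold change 1.12 ± 0.07; edgeR, adjusted p = 9.98e-09). Kank3, of a family that links talin to the cell cortex, fell from 16.2, 8.90 and 12.1 CPM to 5.51, 4.58 and 6.11 CPM (log2 fold change -1.21 ± 0.19; edgeR, adjusted p = 0.000349). Ptk2b, the kinase PYK2, fell from 13.9, 14.5 and 11.3 CPM to 7.53, 8.49 and 7.99 CPM (log2 fold change -0.72 ± 0.13; edgeR, adjusted p = 0.000935). The groups stood apart in these 3 genes, and Ptk2, its paralogue encoding focal adhesion kinase, was among the genes that rose, with Actn4, Actn1, Kank2 and Zyx. With BMP7 replicate 1 alone, 7 adaptor genes rose and 6 fell.

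**Figure D5:**
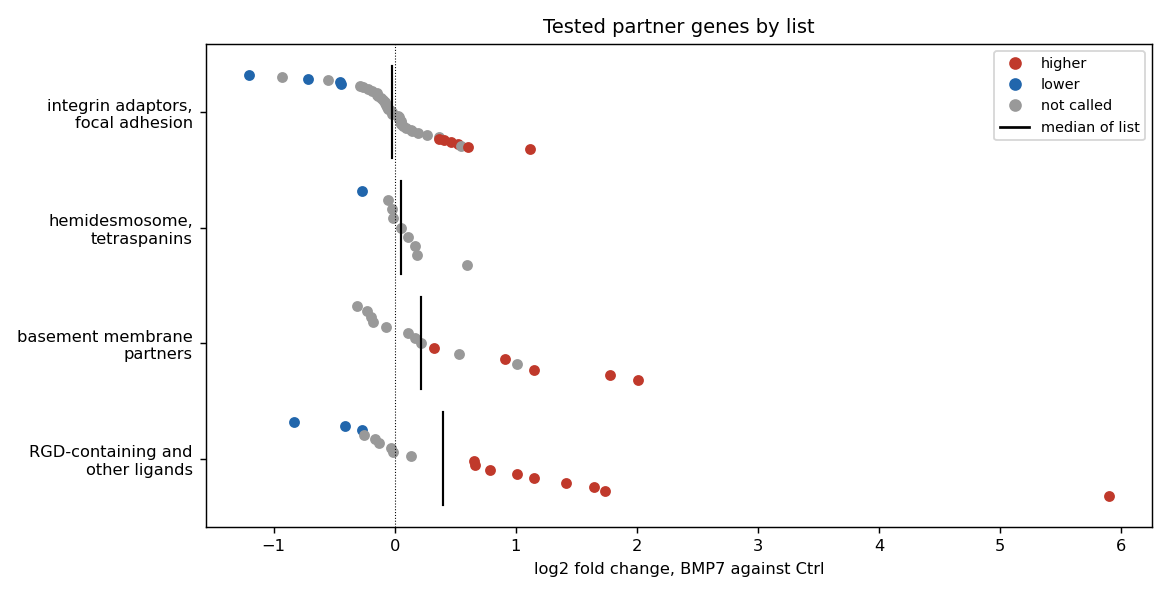
Each point is 1 tested partner gene at its log2 fold change of BMP7 against Ctrl (x axis), in 4 lists (y axis), and black lines mark list medians. The adaptor list was centred near 0 (median -0.02) with 6 genes higher and 4 lower, and the ligand list had its median at 0.39 with Tnn farthest out at 5.90.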

How the data were processed

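The authors aligned read pairs of poly(A) RNA with subjunc (Subread 2.0.3), counted fragments with featureCounts 2.0.1 and deposited the counts per gene without normalization, with summed exon lengths. Strand was ignored, and fragments mapping to several places or genes were left out. Alignment was to mm10 by the methods, while the file header gives an mm39 annotation, whose coordinates are printed. In R 4.3.3, edgeR 4.0.16 was run with its expression filter, TMM scaling and quasi-likelihood test, adjusted by Benjamini-Hochberg over 15733 genes, with the thresholds of the study. The script was tested on simulated data, where it recovered 46 of 62 changes of 0.5 in log2 (74.2%). A gene that did not pass the test is therefore not shown to be unchanged. P-values measure only the spread between these libraries, which may be technical. Exact permutation tests used log2 CPM with a prior count of 2.

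The members and lists were chosen with earlier results of these data known, and 1 gene that the naming rule takes is not reported here. Called members and the tested subunits of laminin-332, laminin-511, alpha6beta4 and the RGD-binding group are named with each library, and of each partner list the 3 called genes with the largest change at a mean of at least 1 CPM. Itga3, Itga4, Itga7, Itgb2, Lamb2, Nid1, Spp1, Fn1, Tnc, Col4a1, Col4a5, Lyz2, Cd68, the fibroblast genes and partners listed without values were named after their values were seen. Alternatives were DESeq2 1.42.0, 2 scalings, 2 filters, 3 thresholds and leaving out each library. Fold changes of BMP7 replicate 1 alone came from giving replicates 3 and 4 their own coefficient, and counts of its calls from a fit without them, chosen after seeing the data. Copies were searched with BLAST 2.17.0.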

Additional observations from a re-analysis of the deposited data

How the results depend on the processing

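No paired analysis was possible because the columns, numbered 1, 3 and 4 for BMP7 and 1, 2 and 3 for Ctrl, do not show which labelled sample each is. Itga6, Itgb3, Lama5 and Lamc1 kept their calls in all 6 fits that left out 1 library (log2 fold changes 0.38 to 0.46, -0.50 to -0.36, -0.58 to -0.47 and -0.54 to -0.41). Other scalings moved the median of all genes by at most 0.02 (log2). With a fold of 1.5 required, 476 genes rose and 304 fell, with no integrin or laminin gene among them in either direction (0 and 0), 2 and 2 adaptors, 0 hemidesmosome genes lower and 1 ligand lower. With edgeR's glmTreat, 494 rose and 254 fell, with 2 adaptors lower, 0 hemidesmosome genes lower, 3 basement membrane genes higher and 1 ligand lower. With the adjusted p alone, 2 integrin and laminin genes rose and 1 basement membrane gene fell. Leaving out 1 library gave 563 to 902 genes lower (563 without Ctrl replicate 2), 1 to 2 integrin and laminin genes higher (2 without BMP7 replicate 3), 0 to 1 hemidesmosome genes lower (0 without Ctrl replicate 2, Ctrl replicate 3 or BMP7 replicate 3) and 2 to 5 basement membrane genes higher (2 without Ctrl replicate 2, 3 without BMP7 replicate 3). BMP7 replicate 1 alone, assumed to vary like the Ctrl libraries, gave 2 integrin and laminin genes higher, Itga6 and Lamb3, and 0 hemidesmosome genes lower.

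Signs changed for uncalled genes only, and the cause was not tested. Itga1 was at 0.0028 with RLE scaling and 0.0025 with DESeq2, Itga5 at -0.0063 with upper-quartile scaling, and Itgav at -0.085 and Lama4 at -0.14 in the fit without BMP7 replicates 3 and 4. Over the fits without 1 library the ranges were -0.074 to 0.056 for Itga1, -0.081 to 0.41 for Itga2, -0.088 to 0.080 for Itga5, -0.0096 to 0.10 for Itgav, -0.054 to 0.027 for Lama3 and -0.090 to 0.10 for Lama4. Genes under about 10 counts per library, such as Itga7 in Ctrl, are limited by depth.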
